A study of Homo sapiens with 10 samples.

Results

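The genes described here build the DNA replication fork and supply its nucleotides. The cells were U937, an established human line of monocytic origin, after cross-linking of 1 of 2 Fc gamma receptors, the surface proteins through which immune cells bind IgG. The list held 35 genes chosen by function, and 32 of them had a probe set with a single gene symbol, out of 6814 genes tested. MCM4, MCM7 and GINS1 were not analysed here. Where a gene had several probe sets the one with the largest mean signal stood for it, and 1 gene, RFC1, had more than 1 probe set. All 32 passed the filter on low values, so none was lost to it.

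All cells, the controls included, had been differentiated with interferon gamma (IFN gamma). The 5 groups were control cells with no cross-linking listed, cells with the low-affinity receptor CD32 cross-linked, sampled at 2 h and at 6 h, and cells with the high-affinity receptor CD64 cross-linked, sampled at the same times. No time is labelled for the control, so each comparison with control also holds any difference in culture time. Each group had 2 arrays. Nothing in the labels tells if duplicates came from different cultures, so p-values measure the spread between these arrays, which may be technical. For 1 array of the CD32 2 h group the source name gave another receptor number, and its title and description, which both gave CD32, were followed.

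At a replication origin the origin recognition complex, with ORC1 as a subunit, and CDC6 load the MCM2 to MCM7 ring, which becomes the fork helicase once CDC45 and the GINS complex join it. DNA polymerase alpha with its primase starts each strand, polymerases epsilon and delta extend it, and RFC loads the sliding clamp PCNA that holds them on DNA. RPA covers single-stranded DNA, FEN1 and LIG1 join Okazaki fragments, and CAF-1 places histones behind the fork. Ribonucleotide reductase, TYMS, TK1 and DUT supply or clean the deoxynucleotide pool. Many of these genes are transcribed in late G1 and S phase under E2F transcription factors, and macrophage activation is known to slow proliferation.

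The promoters of the measured genes were searched for E2F words. RefSeq promoters (GRCh38.p14, 250 bases before to 50 after each gene start) were matched by symbol for 29 of the 32 genes, in 38 promoters. The words TTTGGCGC, TTTCGCGC, TTTCCCGC and TTTGCCGC were searched on both strands. They stood in 13 of 38 promoters (34.2%), against 1164 of 35116 promoters of all genes in the table (3.31%). The word CCAAT, the letters bound by NF-Y, stood in 20 of the 38 (52.6%) against 34.6% of all. A match describes the letters and shows no binding. The windows below are shown because their genes moved differently after cross-linking: MCM6, DUT, LIG1 and RRM2 were called lower in at least 1 comparison with control, and PCNA and POLE2 higher. Capitals mark the E2F words, and in RRM2, whose promoters held no E2F word, the CCAAT words. The MCM6 and PCNA windows also hold CCAAT words on either strand, which are not marked there. In MCM6 the words TTTGGCGC and TTTCGCGC overlap on opposite strands at both places. The windows lie at chr2:135876484-135876603 (minus strand) for MCM6, chr15:48332097-48332196 (plus) for DUT, chr19:48170395-48170494 (minus) for LIG1, chr20:5126623-5126722 (minus) for PCNA, chr14:49688212-49688294 (minus) for POLE2 and chr2:10122589-10122688 (plus) for RRM2.
MCM6: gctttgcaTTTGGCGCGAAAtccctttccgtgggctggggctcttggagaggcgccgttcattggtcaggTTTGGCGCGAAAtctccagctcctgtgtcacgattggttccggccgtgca
DUT: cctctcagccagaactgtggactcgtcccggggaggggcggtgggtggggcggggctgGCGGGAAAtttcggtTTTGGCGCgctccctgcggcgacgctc
LIG1: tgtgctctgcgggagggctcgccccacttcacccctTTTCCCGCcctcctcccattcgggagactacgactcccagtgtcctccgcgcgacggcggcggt
PCNA: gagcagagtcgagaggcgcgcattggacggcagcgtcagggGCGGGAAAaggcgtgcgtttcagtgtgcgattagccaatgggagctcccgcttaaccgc
POLE2: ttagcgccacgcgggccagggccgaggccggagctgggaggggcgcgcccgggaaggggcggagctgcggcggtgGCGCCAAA
RRM2: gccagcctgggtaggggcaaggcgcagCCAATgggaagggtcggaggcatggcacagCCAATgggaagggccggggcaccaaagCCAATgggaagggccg

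Values are the deposited linear signal, scaled so that the mean of each array without its lowest and highest 2% was 500.5 to 500.6. A gene's signal is compared between arrays, and no gene's level is set against another's. Fold changes and log2 differences come from limma on log2 signal with a floor of 37.5, errors beside log2 differences are standard errors (SE), and a change was called at a p-value under 0.05 after Benjamini-Hochberg adjustment over all 7708 probe sets tested. The monocytic label was checked against markers: of 12 monocytic markers on the array 10 were above the floor on all arrays, among them TYROBP (median signal 1710) and PTPRC (2540), while CD14 (13.8) and MPO (23.1) had medians under the floor. Of 8 T cell, 5 B cell and 8 epithelial and fibroblast markers, 1 of each list was above the floor on all arrays. On 6 or more arrays 4, 3 and 3 of them were above it, beside 10 monocytic markers. The floor is low, with 20.2% to 29.8% of the values on an array at or under it. The summed signal of the 12 monocytic markers was 14680 to 15610 in control, 16660 to 16720 and 19200 to 20330 at 2 h and 6 h of CD32, and 13590 to 14680 and 16780 to 16880 at 2 h and 6 h of CD64. In the same order of cross-linked groups 2, 5, 1 and 4 of them rose and 1, 0, 3 and 3 fell. Of all probe sets 8.86%, 9.63%, 7.64% and 10.7% were called higher and 6.6%, 10.3%, 8.24% and 9.94% lower. The groups differed in control probe sets. Mean log2 signal of 11 bacterial and cre probe sets was 11.05 in control, 11.62 and 12.66 at 2 h and 6 h of CD32, and 11.24 and 9.745 at 2 h and 6 h of CD64. For actin, the 3' probe set read 1.305, 1.555, 1.99, 1.805 and 1.12 times the 5' probe set, with the groups ordered likewise. The highest signal of any probe set was 14536 and 15868 on the CD64 6 h arrays and 27304 to 37994 on the other arrays. Marker sums, control probe sets and highest signals moved with the group, and their part in the differences given here was not tested. In RNA from whole cultures, fewer cells in S phase and less of these mRNAs per cell cannot be told apart.

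Genes of the replication fork were called lower more often than higher in each of the 4 groups, and most often after 6 h of CD32. After 2 h of CD64 this did not hold among the calls kept without any 1 array, of which 2 were higher and 1 lower. After 6 h of CD32, 17 of 32 genes fell and 0 rose, against 10.3% of all probe sets called lower and 9.63% called higher (20% either way). After 2 h of CD32, 11 fell and 1 rose, against 6.6% and 8.86% of all (15.5% either way). CD64 for 2 h gave 7 lower and 3 higher, against 8.24% and 7.64% (15.9% either way). CD64 for 6 h gave 11 lower and 2 higher, against 9.94% and 10.7% (20.6% either way). The median log2 difference of the 32 genes was -0.32 and -0.59 at 2 h and 6 h of CD32 and -0.05 and -0.32 at 2 h and 6 h of CD64. Over all 7708 probe sets the median was -0.03, -0.08, -0.13 and -0.04 in the same order. Set against these medians, the 32 genes lay below the rest in 3 groups and slightly above the rest after 2 h of CD64, as deposited. Under quantile normalization the CD64 2 h median was -0.11 for the 32 genes and 0 for all probe sets, so the side on which the genes lay turned. Both arrays lay below both control arrays for 18, 26, 13 and 19 of the 32 genes in the same order of groups, against 25.9%, 31%, 32.5% and 27.2% of all probe sets. They lay above both for 4, 0, 7 and 3, against 24.3%, 23%, 19.1% and 25.9%. The 4 comparisons share the control arrays and are not independent of each other.

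**Figure D1:**
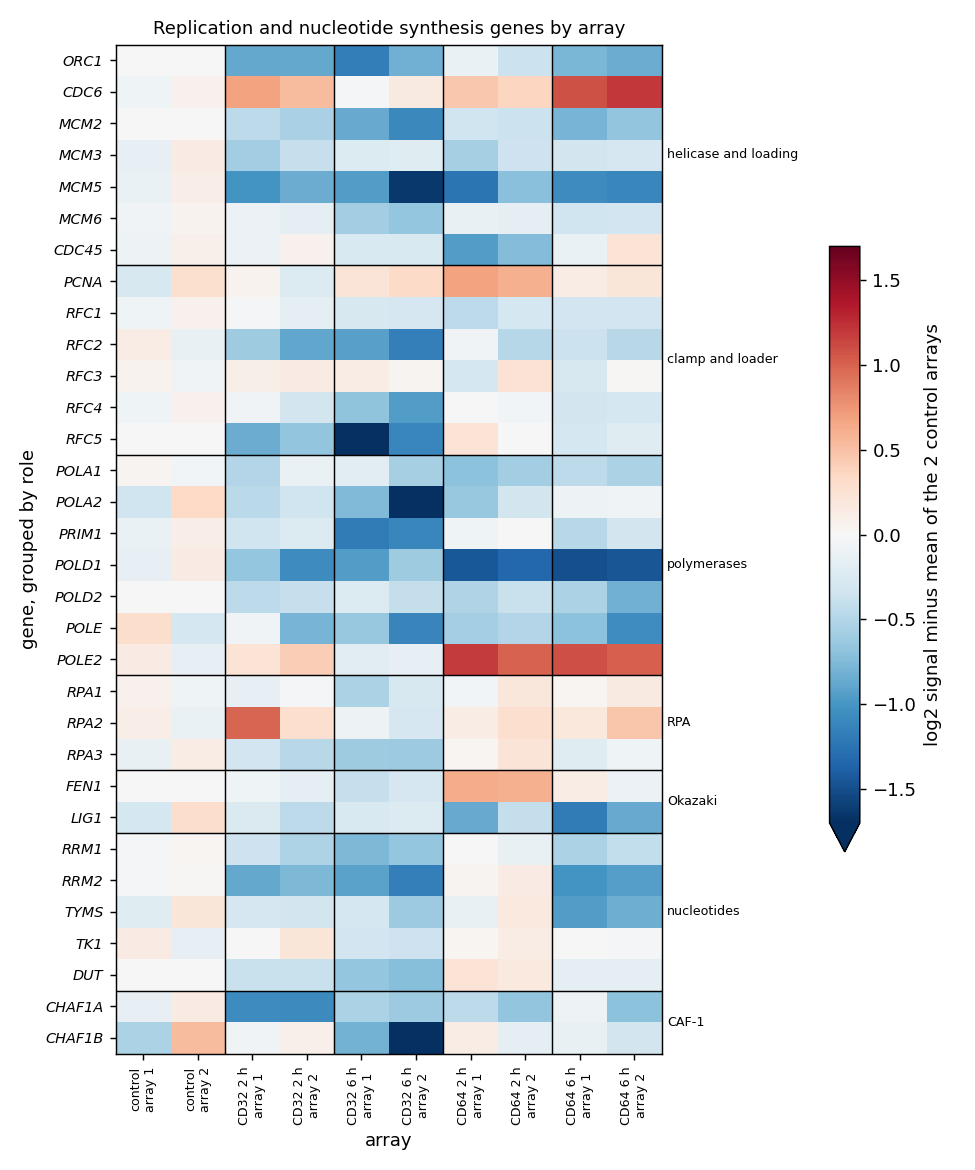
Log2 signal of 32 genes (rows, by role) on 10 arrays (columns), minus the mean of the 2 control arrays for that gene; red is higher and blue lower, and values under -1.7 share the darkest blue. RRM2, ORC1 and MCM5 are blue on both CD32 2 h, both CD32 6 h and both CD64 6 h arrays. On both CD64 2 h arrays MCM5 is blue too, and ORC1 is a paler blue. POLE2 is red on the 4 CD64 arrays and POLD1 is darkest there.

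By the F-test across all 4 cross-linked groups, 24 of the 32 genes changed, against 34.5% of all probe sets. Of the 32 genes 22 were called lower in at least 1 comparison and higher in 0, 3 were called higher in at least 1 and lower in 0, and 1, FEN1, was called both ways. For all probe sets, calls in at least 1 comparison were not counted, so these counts stand without a background share. Per comparison, 15.5% to 20.6% of all probe sets were called either way. MCM2, MCM5 and POLD1 were called lower in 4 of 4 comparisons, as were 124 of all 7708 probe sets. The remaining 6 genes, RPA2, RFC3, POLA1, POLE, TK1 and CHAF1A, were called in no comparison with control.

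**Figure D2:**
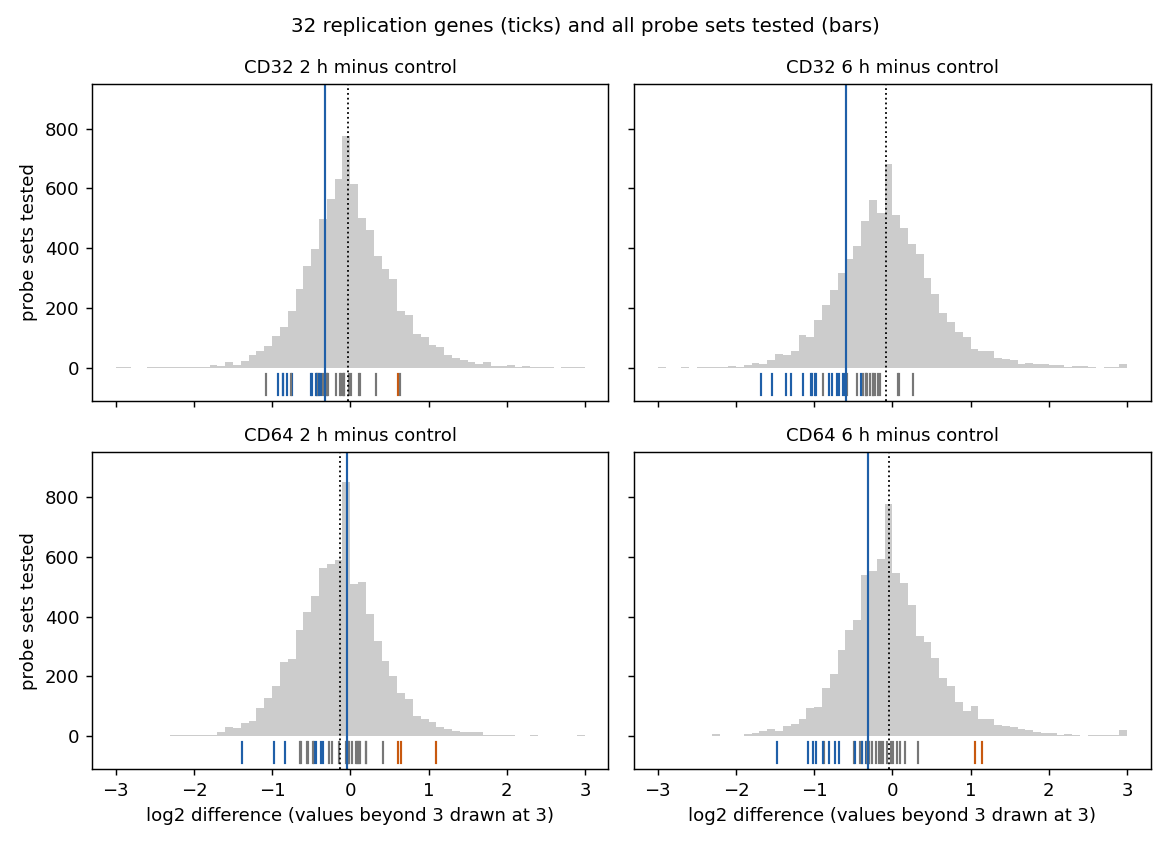
Log2 differences from control for the 4 cross-linked groups. Grey bars count all 7708 probe sets tested, ticks are the 32 genes (blue called lower, orange called higher, grey not called), the dotted line is the median of all probe sets and the blue line that of the 32 genes. The blue line lies at -0.59 for CD32 6 h and at -0.05 for CD64 2 h.

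Of the origin and helicase genes 4 fell in each cross-linked group, MCM2 and MCM5 among them each time, and CDC6 rose in 2 groups. Of 7 measured, 4 were lower and 1 higher after 2 h of CD32, 4 and 0 after 6 h of CD32, 4 and 0 after 2 h of CD64, and 4 and 1 after 6 h of CD64. In the same order, 6.6%, 10.3%, 8.24% and 9.94% of all probe sets were called lower, and 8.86%, 9.63%, 7.64% and 10.7% higher. ORC1, the origin recognition subunit whose level varies most through the cell cycle, read 856 and 869.8 in control, 473 and 474 at 2 h and 382 and 492 at 6 h of CD32, and 795 and 672 at 2 h and 503 and 479.6 at 6 h of CD64. The CD32 arrays at both times and the CD64 6 h arrays lay well below the controls, and the CD64 2 h arrays lay between. It fell 1.82-fold and 1.99-fold at 2 h and 6 h of CD32 (log2 -0.87 ± 0.151 SE, adjusted p = 0.00298, and log2 -0.99 ± 0.151 SE, adjusted p = 0.000913). After 6 h of CD64 it fell 1.76-fold (log2 -0.81 ± 0.151 SE, adjusted p = 0.00286), and at 2 h it was not called (log2 -0.24 ± 0.151 SE, adjusted p = 0.356).

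MCM2, a subunit of the helicase ring, read 4239 and 4290 in control, 3119 and 2905 at 2 h and 2351 and 2001 at 6 h of CD32, and 3382 and 3325 at 2 h and 2477 and 2677 at 6 h of CD64. No array of a cross-linked group reached the control arrays, and in both receptors the 6 h arrays lay below the 2 h arrays. MCM2 fell 1.97-fold at 6 h of CD32 (log2 -0.98 ± 0.096 SE, adjusted p = 4.95e-05) and 1.66-fold at 6 h of CD64 (log2 -0.73 ± 0.096 SE, adjusted p = 0.000328), and 1.42-fold and 1.27-fold at 2 h. MCM5 read 2359 and 2757 in control, 1265 and 1416 at 2 h and 1325 and 818 at 6 h of CD32, and 1079 and 1563 at 2 h and 1221 and 1185 at 6 h of CD64. It fell 1.91-fold to 2.45-fold in the 4 groups, with the lowest array at 6 h of CD32 (log2 -1.29 ± 0.216 SE, adjusted p = 0.00165). MCM6 read 5277 and 5722 in control, 5148 and 4904 at 2 h and 3634 and 3494 at 6 h of CD32, and 5049 and 4894 at 2 h and 4329 and 4377 at 6 h of CD64. Its 2 h arrays lay just below the controls and were not called, and at 6 h it fell 1.54-fold for CD32 (log2 -0.62 ± 0.0821 SE, adjusted p = 0.000342) and 1.26-fold for CD64 (adjusted p = 0.0136, and 0.0843 under quantile normalization). MCM3 read 1589 and 1911 in control, 1157 and 1331 at 2 h and 1486 and 1505 at 6 h of CD32, and 1181 and 1359.7 at 2 h and 1406 and 1425 at 6 h of CD64, and it was called lower at 2 h of CD32 (log2 -0.49 ± 0.118 SE, adjusted p = 0.0174) and of CD64 (log2 -0.46 ± 0.118 SE, adjusted p = 0.0232) but not at 6 h, where quantile normalization called it for CD64 (adjusted p = 0.0376).

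CDC6, which loads the ring with ORC, went the other way. It read 286 and 316 in control, 481 and 435 at 2 h and 297 and 335 at 6 h of CD32, and 415 and 387 at 2 h and 638 and 691 at 6 h of CD64. The CD64 6 h arrays were the highest and the CD32 6 h arrays overlapped the controls. It rose 1.52-fold at 2 h of CD32 (log2 0.61 ± 0.158 SE, adjusted p = 0.0257) and 2.21-fold at 6 h of CD64 (log2 1.14 ± 0.158 SE, adjusted p = 0.000438), and at 2 h of CD64 it was not called as deposited (adjusted p = 0.109) and was called under quantile normalization (adjusted p = 0.0461). CDC45, the helicase cofactor, read 323 and 361 in control, 319 and 359.7 at 2 h and 286 and 286 at 6 h of CD32, and 177 and 206 at 2 h and 316 and 400.1 at 6 h of CD64. It fell at 2 h of CD64 (log2 -0.84 ± 0.209 SE, adjusted p = 0.0205), where both arrays lay under all others, and that call was lost under quantile normalization (adjusted p = 0.0785).

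**Figure D3:**
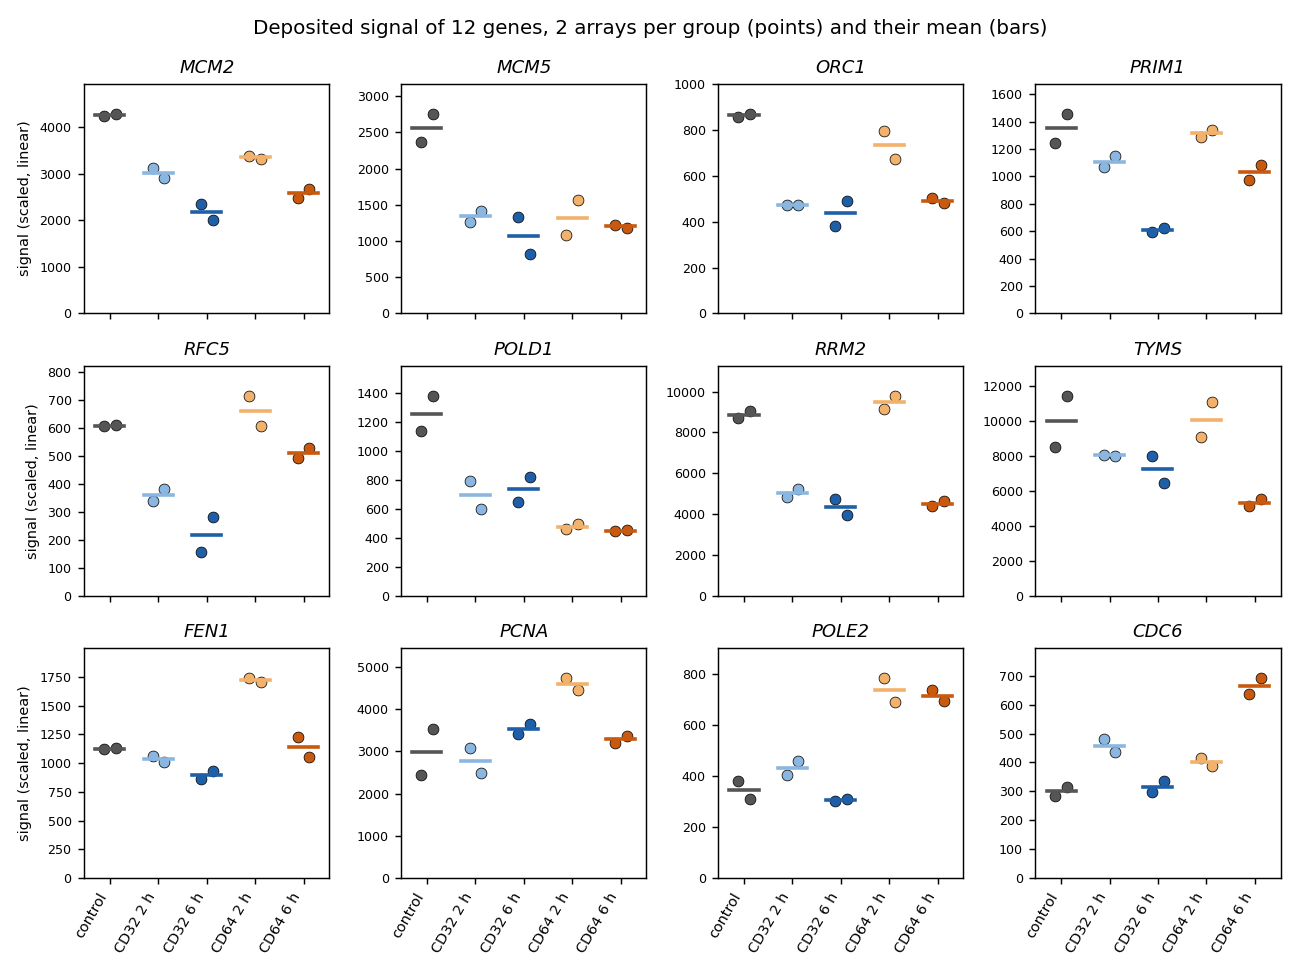
Deposited linear signal (y axis, from 0) of 12 genes on each array (points, 2 per group) with the group mean (bars), for control, CD32 2 h, CD32 6 h, CD64 2 h and CD64 6 h. RRM2 stood near the control level after 2 h of CD64 (9153 and 9789, control 8713 and 9035) and far below it in the other 3 groups, and POLE2 was above 690 on all 4 CD64 arrays and below 459 on the other 6.

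Of the 6 clamp and clamp loader genes 3, all loader subunits, fell at 6 h of CD32, and PCNA rose at 2 h of CD64. In these comparisons 10.3% of all probe sets were called lower and 7.64% higher, respectively. RFC5, a small subunit of the loader, read 607 and 610.4 in control, 340.1 and 382 at 2 h and 156 and 283 at 6 h of CD32, and 716 and 608 at 2 h and 493 and 528 at 6 h of CD64. Both CD32 6 h arrays lay under all other arrays. It fell 2.9-fold there (log2 -1.53 ± 0.241 SE, adjusted p = 0.00113), and at 2 h of CD32 it was not called (log2 -0.76 ± 0.241 SE, adjusted p = 0.0593), except under quantile and cyclic loess normalization (adjusted p = 0.0446 and 0.0465). RFC4, another subunit, read 1776 and 1980.3 in control, 1795 and 1514 at 2 h and 1169.6 and 975 at 6 h of CD32, and 1874 and 1808 at 2 h and 1510.5 and 1526 at 6 h of CD64, and it fell 1.76-fold at 6 h of CD32 (log2 -0.81 ± 0.118 SE, adjusted p = 0.000675). RFC2 read 592 and 498 in control, 358 and 295 at 2 h and 286 and 242 at 6 h of CD32, and 521 and 389 at 2 h and 420.5 and 393 at 6 h of CD64. It fell 1.67-fold and 2.06-fold at 2 h and 6 h of CD32 (adjusted p = 0.0306 and 0.00386), while the CD64 differences of -0.27 ± 0.201 and -0.42 ± 0.201 (log2 ± SE) were not called. The large subunit RFC1 read 827 and 922 in control, 851 and 788 at 2 h and 720.3 and 714 at 6 h of CD32, and 639 and 708 at 2 h and 695 and 697 at 6 h of CD64. It was called lower at 2 h of CD64 (log2 -0.38 ± 0.115 SE, adjusted p = 0.0479), and not under quantile normalization (adjusted p = 0.0574), under which it was called at 6 h of CD64 (adjusted p = 0.0131). PCNA, the clamp itself, read 2436 and 3526 in control, 3067 and 2485 at 2 h and 3415 and 3657 at 6 h of CD32, and 4729 and 4462 at 2 h and 3201 and 3373 at 6 h of CD64. Its 2 control arrays were far apart, and the CD64 2 h arrays stood above all others. It rose 1.57-fold there (log2 0.65 ± 0.156 SE, adjusted p = 0.0172).

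Of 7 polymerase and primase genes 2 or 3 fell in each group, against 6.6% to 10.3% of all probe sets. POLE2 rose after CD64, where 7.64% and 10.7% of all were called higher at 2 h and 6 h. POLE2, the second subunit of polymerase epsilon, read 379.6 and 311 in control, 403 and 458 at 2 h and 302 and 312 at 6 h of CD32, and 783 and 690.2 at 2 h and 736 and 692 at 6 h of CD64. It rose 2.14-fold at 2 h (log2 1.10 ± 0.156 SE, adjusted p = 0.000956) and 2.08-fold at 6 h of CD64 (log2 1.05 ± 0.156 SE, adjusted p = 0.000708), and it was not called after CD32 (log2 0.32 ± 0.156 and -0.16 ± 0.156). POLE, the catalytic subunit of the same enzyme, read 396 and 262 in control, 308 and 186 at 2 h and 206 and 148 at 6 h of CD32, and 216 and 228 at 2 h and 199 and 155 at 6 h of CD64. Its 2 control arrays were far apart and no comparison was called, with the lowest adjusted p at 0.0929. POLD1, the catalytic subunit of polymerase delta, read 1134 and 1379 in control, 790.4 and 598 at 2 h and 648 and 822 at 6 h of CD32, and 460.4 and 494 at 2 h and 445 and 455 at 6 h of CD64. All 8 cross-linked arrays lay below both controls, and the 4 CD64 arrays below the 4 CD32 arrays. It fell 1.82-fold and 1.71-fold at 2 h and 6 h of CD32 (log2 -0.86 ± 0.17 and -0.78 ± 0.17), and 2.62-fold and 2.78-fold at 2 h and 6 h of CD64 (log2 -1.39 ± 0.17 and -1.48 ± 0.17, adjusted p = 0.000407 and 0.000139). Its partner POLD2 read 1186 and 1170 in control, 865 and 895 at 2 h and 999.6 and 891 at 6 h of CD32, and 824 and 908 at 2 h and 807 and 669 at 6 h of CD64, and it fell 1.6-fold at 6 h of CD64 (log2 -0.68 ± 0.121 SE, adjusted p = 0.00221) and 1.34-fold and 1.36-fold at 2 h of CD32 and CD64.

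The primase gene PRIM1, which makes the RNA primer, read 1244 and 1458 in control, 1067 and 1148 at 2 h and 591 and 625 at 6 h of CD32, and 1286 and 1342 at 2 h and 971 and 1087 at 6 h of CD64. Both CD32 6 h arrays lay far below the 8 others. It fell 2.21-fold at 6 h of CD32 (log2 -1.15 ± 0.113 SE, adjusted p = 4.95e-05) and 1.31-fold at 6 h of CD64 (adjusted p = 0.0311). POLA2, the accessory subunit of polymerase alpha, read 179.8 and 288 in control, 166 and 180.2 at 2 h and 136 and 36.8 at 6 h of CD32, and 146 and 183 at 2 h and 215 and 218 at 6 h of CD64. It was called lower at 6 h of CD32 (log2 -1.67 ± 0.52 SE, adjusted p = 0.0448), where 1 array lay just under the floor and was set to it. That call was lost under quantile normalization (adjusted p = 0.0689). POLA1, the catalytic subunit, was between 235 and 356 on the 8 cross-linked arrays and at 394 and 372 in control, and it was not called (lowest adjusted p = 0.0737).

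Of 3 RPA genes 1 fell at 2 h and 2 fell at 6 h of CD32, against 6.6% and 10.3% of all probe sets. After CD64 0 were called, against 15.9% and 20.6% either way at 2 h and 6 h. RPA3, the smallest subunit, read 1854 and 2196 in control, 1617 and 1449 at 2 h and 1321 and 1319 at 6 h of CD32, and 2072 and 2349.5 at 2 h and 1749 and 1916 at 6 h of CD64. All 4 CD32 arrays lay under the controls, and it fell 1.32-fold and 1.53-fold at 2 h and 6 h (log2 -0.40 ± 0.112 SE, adjusted p = 0.0354, and log2 -0.61 ± 0.112 SE, adjusted p = 0.00286). RPA1, the large DNA-binding subunit, read 1578 and 1439 in control, 1373 and 1488 at 2 h and 1042 and 1249.7 at 6 h of CD32, and 1453 and 1727 at 2 h and 1543 and 1677 at 6 h of CD64, and it fell 1.32-fold at 6 h of CD32 (log2 -0.40 ± 0.122 SE, adjusted p = 0.0413), a call lost under cyclic loess normalization (adjusted p = 0.0641). RPA2 read 2010.5 and 1707 in control, 3693 and 2259 at 2 h and 1746 and 1520.1 at 6 h of CD32, and 2024 and 2248 at 2 h and 2099 and 2561 at 6 h of CD64. It passed the F-test (adjusted p = 0.0444), the 2 arrays of CD32 2 h, its highest group, were far apart, and no single comparison with control was called as deposited (log2 0.64 ± 0.197 SE, adjusted p = 0.0515, and 0.0445 under cyclic loess normalization).

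Of the Okazaki fragment genes, the flap nuclease FEN1 read 1123 and 1129 in control, 1065 and 1012 at 2 h and 858 and 927 at 6 h of CD32, and 1737 and 1708 at 2 h and 1224 and 1051 at 6 h of CD64. The CD64 2 h arrays stood alone above the rest. FEN1 rose 1.53-fold there (log2 0.61 ± 0.103 SE, adjusted p = 0.00256) and fell 1.26-fold at 6 h of CD32 (adjusted p = 0.0424, and 0.0921 under cyclic loess normalization). LIG1, the ligase that seals the fragments, read 429 and 648 in control, 445 and 387 at 2 h and 441 and 448 at 6 h of CD32, and 291 and 399 at 2 h and 232 and 292 at 6 h of CD64. Its control arrays were far apart, and the CD64 6 h arrays lay below both. It fell 2.03-fold at 6 h of CD64 (log2 -1.02 ± 0.236 SE, adjusted p = 0.0103).

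Of 5 nucleotide synthesis genes 3 fell at 2 h of CD32, 3 at 6 h of CD32 and 3 at 6 h of CD64. Of all probe sets 6.6%, 10.3% and 9.94% were called lower there. After 2 h of CD64 0 were called, against 15.9% of all either way. RRM2, the ribonucleotide reductase subunit that is made anew in each S phase, read 8713 and 9035 in control, 4845 and 5247 at 2 h and 4741 and 3977 at 6 h of CD32, and 9153 and 9789 at 2 h and 4402 and 4619 at 6 h of CD64. The CD64 2 h arrays lay just above the controls, and the 6 other cross-linked arrays lay far below them. It fell 1.76-fold at 2 h of CD32 (log2 -0.82 ± 0.101 SE, adjusted p = 0.000357), 2.04-fold at 6 h of CD32 (log2 -1.03 ± 0.101 SE, adjusted p = 4.95e-05) and 1.97-fold at 6 h of CD64 (log2 -0.98 ± 0.101 SE, adjusted p = 6.99e-05). Under quantile and cyclic loess normalization its fall at 6 h of CD64 was log2 -0.81 and -0.76. At 2 h of CD64 its log2 difference was 0.09 ± 0.101, with a 95% interval of -0.13 to 0.32. Its partner subunit RRM1 read 3227 and 3361 in control, 2578 and 2290 at 2 h and 1942 and 2097 at 6 h of CD32, and 3323 and 3013 at 2 h and 2277 and 2473 at 6 h of CD64, with falls of 1.36-fold, 1.63-fold and 1.39-fold where RRM2 fell. DUT, which removes dUTP, read 1456 and 1477 in control, 1126 and 1128 at 2 h and 932 and 891 at 6 h of CD32, and 1726 and 1647 at 2 h and 1307 and 1308 at 6 h of CD64. It fell 1.3-fold and 1.61-fold at 2 h and 6 h of CD32 (log2 -0.38 ± 0.0868 SE, adjusted p = 0.013, and log2 -0.69 ± 0.0868 SE, adjusted p = 0.000268) and was not called after CD64. Thymidylate synthase, TYMS, read 8539 and 11442 in control, 8087 and 7979 at 2 h and 8019.6 and 6452 at 6 h of CD32, and 9076 and 11099 at 2 h and 5118 and 5542 at 6 h of CD64, and it was called lower at 6 h of CD64 (1.86-fold, log2 -0.89 ± 0.154 SE, adjusted p = 0.00189). That difference was log2 -0.64 and -0.63 under quantile and cyclic loess normalization. At 6 h of CD32 TYMS was not called as deposited (log2 -0.46 ± 0.154 SE, adjusted p = 0.0607) and was called lower under quantile normalization (adjusted p = 0.0107). The salvage kinase TK1 was between 319 and 472 on all arrays and was not called (adjusted p from 0.186 to 0.997).

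Among the CAF-1 genes CHAF1B read 156 and 331 in control, 218 and 240.4 at 2 h and 130.2 and 59.9 at 6 h of CD32, and 247 and 205 at 2 h and 209 and 183 at 6 h of CD64. It was called lower at 6 h of CD32 (log2 -1.36 ± 0.435 SE, adjusted p = 0.0497), where its 2 arrays were far apart, as were its 2 control arrays, and the call was lost under quantile normalization (adjusted p = 0.102). CHAF1A was at 146 and 176 in control and 76.3 and 75.8 at 2 h of CD32, a log2 difference of -1.08 ± 0.363 that was not called (adjusted p = 0.0733). The loader subunit RFC3 was between 959 and 1400 on the 10 arrays and had the highest F-test adjusted p of the 32 genes (0.722).

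The calls differed in how far they rested on 1 array. In the CD32 6 h comparison 12 of 17 calls were kept without any 1 array of the groups compared (MCM2, MCM5, MCM6, ORC1, RFC2, RFC4, RFC5, PRIM1, RPA3, RRM1, RRM2 and DUT), with adjusted p-values up to 0.0436. After 6 h of CD64 8 of 13 were kept (MCM2, POLD1, POLD2, POLE2, CDC6, ORC1, RRM2 and TYMS), up to 0.03. After 2 h of CD64 3 of 10 were kept (POLD1, POLE2 and FEN1) and after 2 h of CD32 2 of 12 (ORC1 and RRM2). For each of the others the highest adjusted p without 1 array was 0.0556 to 0.294. The count of 12 at 2 h of CD32 was 8 and 5 without control array 1 or 2, and 5 and 4 without CD32 2 h array 1 or 2. The count of 10 at 2 h of CD64 was 4 without either control array, and 3 and 6 without CD64 2 h array 1 or 2.

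Receptors were then compared directly. The control arrays do not enter these differences, but they enter the shared estimate of the spread behind the errors and p-values. With only the groups compared, 3 genes were called at 2 h and 4 at 6 h, in place of 10 and 12. The share of all probe sets called under that setting is not given here. At 2 h 9 of 32 genes were higher after CD64 than after CD32 and 1 was lower, against 6.86% and 9.43% of all probe sets (16.3% either way). Both CD64 arrays lay above both CD32 arrays for 15 genes and below for 6, against 20.7% and 35.1%. The higher genes included RRM2 (1.88-fold, log2 0.91 ± 0.101 SE, adjusted p = 0.00028), FEN1 (1.66-fold, log2 0.73 ± 0.103 SE, adjusted p = 0.00098) and DUT (1.5-fold, log2 0.58 ± 0.0868 SE, adjusted p = 0.00133). Also higher were POLE2 (1.71-fold), PCNA (1.66-fold), RFC5 (1.83-fold), ORC1 (1.54-fold), RPA3 (1.44-fold) and RRM1 (1.3-fold). CDC45 was 1.78-fold lower (log2 -0.83 ± 0.209 SE, adjusted p = 0.0207), a call lost under quantile normalization (adjusted p = 0.0913). MCM5, which fell alike in sign in both, differed by log2 -0.04 ± 0.216, with a 95% interval of -0.52 to 0.43. The median log2 difference of the 32 genes was 0.09, and that of all probe sets -0.11. RRM2, FEN1 and DUT kept their calls without any 1 array. The count of 10 was 6 and 5 without CD32 2 h array 1 or 2, and 4 and 8 without CD64 2 h array 1 or 2.

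At 6 h 10 genes were higher after CD64 than after CD32 and 2 were lower, against 9.81% and 7.8% of all probe sets (17.6% either way). Both CD64 arrays lay above for 18 genes and below for 8, against 33.1% and 23.6%. RFC5 was 2.43-fold higher (log2 1.28 ± 0.241 SE, adjusted p = 0.00435), POLE2 2.32-fold (log2 1.22 ± 0.156 SE, adjusted p = 0.000412), CDC6 2.11-fold (log2 1.07 ± 0.158 SE, adjusted p = 0.00101) and PRIM1 1.69-fold (log2 0.76 ± 0.113 SE, adjusted p = 0.00109). DUT, RFC4, RPA1, RPA3, FEN1 and MCM6 were 1.22-fold to 1.43-fold higher. For FEN1 the call was lost under quantile normalization (adjusted p = 0.108). POLD1 was 1.62-fold lower after CD64 (log2 -0.70 ± 0.17 SE, adjusted p = 0.0164) and LIG1 1.71-fold (log2 -0.77 ± 0.236 SE, adjusted p = 0.046). For RRM2 the difference depended on the scaling. It was log2 0.05 ± 0.101 as deposited, with a 95% interval of -0.17 to 0.28 (adjusted p = 0.8), 0.20 under quantile (adjusted p = 0.197) and 0.35 under cyclic loess normalization, where it was called (adjusted p = 0.0249). MCM2 and RRM1 were also called higher after CD64 under cyclic loess (log2 0.36 and 0.31) and not as deposited. POLD2 was called lower after CD64 under quantile and cyclic loess normalization (log2 -0.46 and -0.51) and not as deposited. ORC1 was not called under any of the 3 scalings (log2 0.18 ± 0.151, 95% interval -0.15 to 0.52). The calls of RFC5, POLE2, PRIM1, CDC6 and DUT were kept without any 1 array. The count of 12 was 8 and 6 without CD32 6 h array 1 or 2, and 5 and 6 without CD64 6 h array 1 or 2. At 6 h the actin ratio was 1.99 for CD32 and 1.12 for CD64, and its part was not tested.

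**Figure D4:**
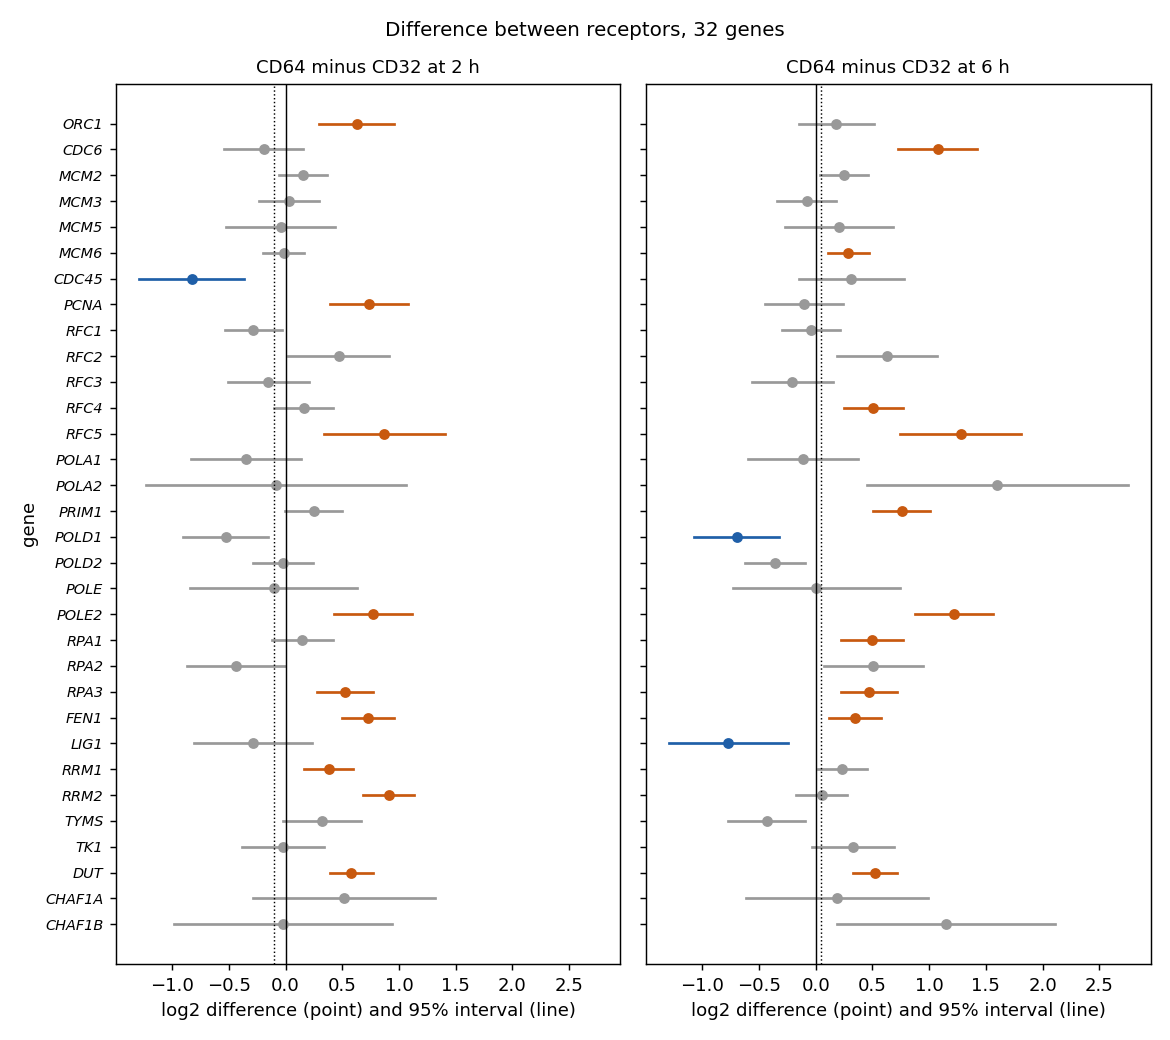
Log2 difference of CD64 minus CD32 for 32 genes at 2 h (left) and 6 h (right), as points with 95% intervals from limma; orange marks genes called higher after CD64, blue called lower, grey not called. The solid line is 0 and the dotted line the median of all probe sets, -0.11 at 2 h and 0.05 at 6 h. RRM2 lies at 0.91 at 2 h and, as deposited, at 0.05 at 6 h (0.35 under cyclic loess normalization).

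The change from 2 h to 6 h was tested within each receptor. From 2 h to 6 h of CD32, 5 of 32 genes fell and 0 rose, against 2.43% and 2.04% of all probe sets (4.46% either way). Of all these calls 45.6% were upward, and 56.1% under cyclic loess normalization. Both 6 h arrays lay above both 2 h arrays for 3 genes and below for 20, against 19.4% and 29%. The 5 were PRIM1 (1.82-fold, log2 -0.86 ± 0.113 SE, adjusted p = 0.00265), RPA2 (1.77-fold), RFC4 (1.54-fold), MCM6 (1.41-fold) and MCM2 (1.39-fold). Each of these calls was lost without 1 or more of the 4 arrays, and the count was 1 without either CD32 2 h array and 3 and 2 without CD32 6 h array 1 or 2. From 2 h to 6 h of CD64, 7 fell and 2 rose, against 6.25% and 7.56% (13.8% either way). The 6 h arrays lay above for 5 genes and below for 17, against 33.6% and 19.2%. RRM2 fell 2.1-fold (log2 -1.07 ± 0.101 SE, adjusted p = 0.000107), TYMS 1.88-fold (log2 -0.91 ± 0.154 SE, adjusted p = 0.00295) and FEN1 1.52-fold (log2 -0.60 ± 0.103 SE, adjusted p = 0.00318), and these 3 were kept without any 1 array. Under quantile and cyclic loess normalization the RRM2 fall was log2 -0.83 and -0.74, and that of TYMS log2 -0.59 and -0.52. ORC1, RRM1, MCM2 and DUT fell 1.29-fold to 1.49-fold, with the call of MCM2 lost under quantile normalization (adjusted p = 0.0677). CDC45 rose 1.87-fold and CDC6 1.66-fold, and both calls were lost under that normalization (adjusted p = 0.102 and 0.0692). The count of 9 was 4 and 5 without CD64 2 h array 1 or 2, and 4 and 3 without CD64 6 h array 1 or 2.

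The interaction of receptor and time, which tests whether the change from 2 h to 6 h differed between receptors, was called for 5 of 32 genes, 2 higher and 3 lower for CD64, against 6.72% and 4.75% of all probe sets (11.5% either way). For CDC6 the interaction (log2 1.27 ± 0.224 SE, adjusted p = 0.00508) set a rise from 2 h to 6 h of CD64 (log2 0.73 ± 0.158) against a difference of -0.54 ± 0.158 in CD32 that was not called. For RRM2 (log2 -0.85 ± 0.143 SE, adjusted p = 0.00371) it set a fall in CD64 (log2 -1.07 ± 0.101) against -0.22 ± 0.101 in CD32, not called. Both interaction calls were kept without any 1 array. RRM2 had an adjusted p of 0.0326 under quantile and 0.0856 under cyclic loess normalization. CDC45, PCNA and TYMS were called as deposited and not under either of these, and MCM6 was called under both (adjusted p = 0.0127 and 0.00469) and not as deposited. The count of 5 was 2 or 3 without each of the 8 arrays compared.

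Other genes of the pathway came from 4 lists. Each list's counts stand beside the shares of all probe sets, which were 8.86% higher and 6.6% lower at 2 h of CD32, 9.63% and 10.3% at 6 h of CD32, 7.64% and 8.24% at 2 h of CD64, and 10.7% and 9.94% at 6 h of CD64. In the list of origin and fork factors, 18 of 30 were tested, with 4 higher and 2 lower at 2 h of CD32, 4 and 2 at 6 h of CD32, 5 and 2 at 2 h of CD64, and 4 and 4 at 6 h of CD64. ORC2, ORC3 and ORC5 are further subunits of the origin recognition complex. ORC2 fell 2.17-fold, 2.74-fold and 1.88-fold at 2 h of CD32, 6 h of CD32 and 6 h of CD64 (log2 -1.12 ± 0.27, -1.46 ± 0.27 and -0.91 ± 0.27). ORC3 fell 2.76-fold and 2.53-fold at 2 h and 6 h of CD64 (log2 -1.47 ± 0.328 SE, adjusted p = 0.012, and log2 -1.34 ± 0.328 SE, adjusted p = 0.0138). ORC5 rose 2.08-fold at 2 h of CD32 and 2.1-fold at 6 h of CD64 (adjusted p = 0.0202 and 0.0138). DBF4, the activator of the CDC7 kinase that fires loaded origins, read 555 and 607 in control, 686 and 833 at 2 h and 1248 and 1348 at 6 h of CD32, and 1196 and 1710.3 at 2 h and 883 and 883 at 6 h of CD64. It rose 2.23-fold at 6 h of CD32 (log2 1.16 ± 0.162 SE, adjusted p = 0.000521) and 2.46-fold at 2 h of CD64 (log2 1.30 ± 0.162 SE, adjusted p = 0.000449). At 6 h of CD64 DBF4 was called higher too (log2 0.60). Geminin, GMNN, which blocks reloading, rose 1.71-fold at 2 h of CD64 (log2 0.78 ± 0.141 SE, adjusted p = 0.00407). RNASEH2A, which removes RNA from DNA, fell 1.78-fold at 6 h of CD32, and POLE3, a histone-fold subunit of polymerase epsilon, rose 1.52-fold at 2 h of CD32. RNASEH2A was also called lower at 2 h of CD32 (log2 -0.50) and at 2 h and 6 h of CD64 (log2 -0.48 and -0.50). POLE3 was also called higher at 2 h of CD64 (log2 0.59). The calls of RNASEH2A and ORC2 at 6 h of CD32 were kept without any 1 array. The DBF4 calls at 6 h of CD32 and 2 h of CD64 were kept likewise. Those of ORC3, ORC5, GMNN and POLE3, and the other calls of ORC2, RNASEH2A and DBF4, were lost without 1 or more arrays.

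In the nucleotide supply list, 20 of 26 were tested. Of these 1 was higher and 5 lower at 2 h of CD32 (8.86% and 6.6% of all probe sets), 0 and 6 at 6 h of CD32 (9.63% and 10.3%), 3 and 2 at 2 h of CD64 (7.64% and 8.24%), and 1 and 6 at 6 h of CD64 (10.7% and 9.94%). MTHFD1, a folate enzyme, fell 1.9-fold and 1.87-fold at 2 h and 6 h of CD32 (log2 -0.92 ± 0.0923 and -0.91 ± 0.0923). The deoxycytidine kinase DCK fell 2.18-fold and 1.84-fold, and PPAT, the entry enzyme of purine synthesis, 2.13-fold and 2.24-fold in the same comparisons. CAD, which starts pyrimidine synthesis, fell 2.12-fold and 2.05-fold at 2 h and 6 h of CD64 (log2 -1.08 ± 0.154 SE, adjusted p = 0.000933, and log2 -1.04 ± 0.154 SE, adjusted p = 0.000708). PAICS, a later purine enzyme, fell 1.81-fold at 6 h of CD64. Outside the 3 largest changes per comparison, MTHFD1 was also called lower at 6 h of CD64 (log2 -0.58). CAD was called lower at 2 h and 6 h of CD32 too (log2 -0.56 and -0.55), at 6 h not under cyclic loess normalization (adjusted p = 0.0653). PAICS was called lower in the same 2 CD32 comparisons (log2 -0.62 and -0.51). CTPS1, which makes CTP, rose 1.53-fold and 1.63-fold at 2 h and 6 h of CD64 (adjusted p = 0.0327 and 0.0134). SLC29A1, a nucleoside transporter, fell 1.75-fold at 2 h of CD64, a call lost under quantile normalization (adjusted p = 0.101). Kept without any 1 array were the calls given for MTHFD1, and those of CAD and PAICS after CD64. Those of DCK, PPAT, CTPS1 and SLC29A1, and of CAD and PAICS after CD32, were lost without 1 or more arrays.

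In the list of S phase control genes, 23 of 25 were tested. Of these 7 were higher and 4 lower at 2 h of CD32 (8.86% and 6.6% of all probe sets), 6 and 5 at 6 h of CD32 (9.63% and 10.3%), 5 and 1 at 2 h of CD64 (7.64% and 8.24%), and 6 and 0 at 6 h of CD64 (10.7% and 9.94%). CCNE2, the cyclin that acts at S phase entry, read 106 and 118 in control, 292 and 225 at 2 h and 183 and 237 at 6 h of CD32, and 498 and 447 at 2 h and 830 and 713 at 6 h of CD64. It rose in 4 of 4 comparisons, as did 224 of all 7708 probe sets, by 2.29-fold and 1.86-fold at 2 h and 6 h of CD32 and 4.22-fold and 6.89-fold at 2 h and 6 h of CD64. CDC25A, the phosphatase that activates its kinase, read 111 and 51.3 in control, 358 and 240 at 2 h and 262 and 295 at 6 h of CD32, and 566 and 404 at 2 h and 322 and 288 at 6 h of CD64, with all 8 cross-linked arrays above both controls. CDKN1A, the inhibitor of the same kinase, read 37 and 16.5 in control, 323 and 461 at 2 h and 1089.6 and 1132 at 6 h of CD32, and 118 and 171 at 2 h and 284 and 309 at 6 h of CD64. Both control arrays lay under the floor, so its rise was at least 10.3-fold and 29.6-fold at 2 h and 6 h of CD32 and at least 3.79-fold and 7.9-fold at 2 h and 6 h of CD64. CDK6, a G1 kinase, read 212 and 104 in control, 8.4 and 36.7 at 2 h and 52.4 and 21.8 at 6 h of CD32, and 44.8 and 71.6 at 2 h and 109 and 44.4 at 6 h of CD64. It fell at least 3.97-fold at 2 h of CD32, where both arrays lay under the floor, and 3.35-fold at 6 h, a fitted value with 1 array set to the floor. Both CDK6 calls were lost without 1 or more arrays, as were the CCNE2 calls after CD32 and the CDC25A call at 2 h of CD32. The CDKN1A calls, and those of CCNE2 after CD64, were kept without any 1 array.

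In the list of fork chromatin and repair genes, 12 of 19 were tested. Of these 1 was higher and 1 lower at 2 h of CD32 (8.86% and 6.6% of all probe sets), 0 and 5 at 6 h of CD32 (9.63% and 10.3%), 2 and 0 at 2 h of CD64 (7.64% and 8.24%), and 0 and 2 at 6 h of CD64 (10.7% and 9.94%). DNMT1, the methyltransferase that follows the fork, fell 1.84-fold and 1.9-fold at 2 h and 6 h of CD32 (log2 -0.88 ± 0.107 SE, adjusted p = 0.000299, and log2 -0.93 ± 0.107 SE, adjusted p = 0.00015) and 1.53-fold at 6 h of CD64. BRCA1 and CHEK1, of the replication stress response, fell 1.78-fold and 1.76-fold at 6 h of CD32, the latter not called under cyclic loess normalization (adjusted p = 0.0682). RBBP4, a CAF-1 subunit outside the 35 genes, fell 1.58-fold at 6 h of CD64. At 6 h of CD32 RBBP4 was called lower too (log2 -0.54). The histone acetyltransferase HAT1 rose 1.27-fold at 2 h of CD32 and 1.34-fold at 2 h of CD64. USP1, a deubiquitinase that acts on PCNA, rose 1.28-fold at 2 h of CD64, a call lost under quantile normalization (adjusted p = 0.118). The DNMT1 and BRCA1 calls were kept without any 1 array, and those of CHEK1, RBBP4, HAT1 and USP1 were lost without 1 or more.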

How the data were processed

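RNA was measured on 10 one-colour oligonucleotide arrays in 5 groups of 2. The deposited values were linear signal intensity, 1 per probe set and array, already scaled by the submitters, as the equal trimmed means show. Which software made them is not given in the sources used here. Of 8793 probe sets 47 were controls, and of the 8746 others 7840 had 1 symbol, 388 several and 518 none in the platform annotation.

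Values under 37.5 (percentile 25 of all values) were set to that floor, log2 was taken, and 7708 probe sets above it on at least 2 arrays were tested. Group means were estimated in a single linear model (limma 3.58.1, R 4.3.3, eBayes with variance trend, 5 residual and 5.65 prior degrees of freedom). Tests were two-sided with Benjamini-Hochberg adjustment over all probe sets. The code was tested on simulated data. The array number limits the precision, and within-group correlations of 0.9639 to 0.9771 stood beside 0.9248 to 0.9707 between groups. No pair of arrays held identical values.

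The genes, lists and rules were chosen with earlier results of these data known. All members called in the F-test or in a comparison with control are given on every array, the other members mostly by range, and of each pathway list up to 3 called genes with the largest change per comparison are named. Alternatives were quantile and cyclic loess normalization, other floors, a pseudocount of 50, no filter, no variance trend, only the groups compared, a replicate block, averaged probe sets and leaving out each array.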

Additional observations from a re-analysis of the deposited data

Results flagged for a closer look

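The change from 2 h to 6 h differed between the receptors for 5 of the 32 genes by the interaction test of limma, as deposited, against 11.5% of all 7708 probe sets, a share near that of the 32 genes. The log2 differences of the changes, CD64 minus CD32, were 1.27 for CDC6, 1.14 for CDC45, -0.84 for PCNA, -0.85 for RRM2 and -0.75 for TYMS. CDC6 was called under both other normalizations (adjusted p = 0.0298 and 0.0309) and RRM2 under quantile normalization only. CDC45, PCNA and TYMS were called under neither, and for TYMS the value was -0.24 under quantile normalization (adjusted p = 0.476).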

How the results depend on the processing

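No call of the 32 genes changed sign under any alternative run. Of 93 calls over 9 comparisons, 80 were kept under quantile and 76 under cyclic loess normalization, 92 and 93 with the floor at percentile 10 and 40, 90 with the pseudocount, 71 without the filter, 48 without the variance trend, 27 with only the groups compared and 93 with probe sets averaged. The comparisons are given in the order CD32 2 h, CD32 6 h, CD64 2 h and CD64 6 h against control, CD64 against CD32 at 2 h and 6 h, and 6 h against 2 h of CD32 and CD64. As deposited 12, 17, 10, 13, 10, 12, 5 and 9 genes were called. Counts under other settings, here and above, stand without the share of all probe sets called under the same setting. They therefore do not show whether these genes lost calls more often than the rest. With only the groups compared 2, 6, 0, 7, 3, 4, 0 and 0 were called by limma, with 14, 17, 12, 19, 12, 17, 10 and 14 at an unadjusted p under 0.05. Without the variance trend the counts were 5, 13, 4, 10, 5, 5, 0 and 5, and the count of 0 had 12 at an unadjusted p under 0.05. The interaction count of 5 was 3 under quantile, under cyclic loess and without the filter, and 2 without the trend. Without 1 array the counts ranged from 4 to 8, 13 to 15, 3 to 6, 9 to 13, 4 to 8, 5 to 8, 1 to 3 and 3 to 5, from 2 to 3 for the interaction, and from 18 to 20 for the F-test, which had 24. The lone array left in a group was assumed to vary like the other groups. With the replicate block, the array number as a term, the counts were 13, 17, 9, 14, 10, 13, 5 and 10, with 7 for the interaction and 24 for the F-test. Nothing in the labels pairs arrays by number, and deviations of same-numbered arrays correlated at -0.141 to 0.285 over 10 pairs of groups. Of 96 pathway calls against control 93 were kept under quantile normalization, 90 under cyclic loess and 36 without any 1 array. Of the differences not called as deposited, 13 were called under quantile or cyclic loess normalization. Of the 32 genes POLA2, CHAF1B and CHAF1A had the widest standard errors.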
